A study of Mus musculus with 4 samples.

Results

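Pax7 peaks in the introns of long genes were 3539 of the 20579 Pax7 peaks in 1 deposited peak list, or 17.2% (95% Wilson interval 16.7% to 17.7%). A peak was a member when its summit lay more than 1 kb from the transcription start site (TSS) of every annotated transcript, in no exon, and inside a protein-coding gene of at least 200 kb in the GENCODE M1 annotation of the mouse genome build NCBIM37 (mm9). The rule used position and gene length, not the strength of a peak. The list came from ChIP-seq in iPax7 cells, mouse embryonic stem cells that carry 1 doxycycline (Dox) inducible copy of a Pax7 cDNA. That copy sits next to Hprt behind a tet-responsive element, so the occupancy is that of a transgene product in cells of a single targeted line. Dox was given at 1 µg/ml from day 3 of serum differentiation, cells that were PDGFRα+FLK1- were sorted on day 5, and chromatin was taken on day 9, after 6 days of Dox. The 2 Pax7 ChIP and 2 input libraries shared all of this, and no library without Dox was part of the comparison. The authors called peaks on the merged libraries, so a peak has no replicate error and the depth behind a single peak is not in the list. All intervals below are 95% intervals that cover counting error only. They are too narrow where peaks lie close together or share a host gene.

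Pax7 is a transcription factor with a paired domain and a homeodomain, each of which binds DNA, and it marks the satellite cells that maintain and repair skeletal muscle. It is known to bind mostly away from promoters, at enhancers that can lie in an intron of the gene they act on or of a neighbor. Very long genes consist almost wholly of intron, and many of them encode adhesion molecules, signaling scaffolds, transcription factors and large structural proteins of muscle and matrix. The position of a peak inside such a gene does not by itself name the gene it acts on.

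The sequences under the strongest peaks show what the summits held. Each stretch below covers 30 bases to either side of a summit, on the plus strand of NCBIM37, and occurs 1 time in the 20 chromosomes searched. The first 3 come from the strongest peaks by fold enrichment, meaning ChIP signal over the local background at the summit. Their windows held none of the sequences that are marked in the other windows, so they carry no capitals.
Agap1, chr1:91596859-91596919, fold 22.4: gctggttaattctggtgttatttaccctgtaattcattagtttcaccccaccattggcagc
Epha5, chr5:84710653-84710713, fold 19.4: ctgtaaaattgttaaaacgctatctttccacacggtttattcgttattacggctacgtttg
Xylt1, chr7:124707716-124707776, fold 19.3: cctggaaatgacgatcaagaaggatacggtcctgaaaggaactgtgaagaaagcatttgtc

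The next 3 are, for each of 3 Pax motifs, the strongest member that holds the whole motif in its printed window, on either strand. Capitals mark the paired-box core GTCACG in Dscam, and the homeodomain dimer TAATNNNATTA in Eya4. In Grin2b they mark ATTAGTCA, the joined paired-box and homeobox sequence, read on the minus strand, together with 2 adjoining bases that complete a variant of the core described below. The dimer and the joined sequence share the letters ATTA.
Dscam, chr16:97366650-97366710, fold 17.0: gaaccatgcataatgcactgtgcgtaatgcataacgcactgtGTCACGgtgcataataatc
Grin2b, chr6:136080608-136080668, fold 11.1: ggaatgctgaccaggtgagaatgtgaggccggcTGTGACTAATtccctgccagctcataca
Eya4, chr10:22846584-22846644, fold 13.4: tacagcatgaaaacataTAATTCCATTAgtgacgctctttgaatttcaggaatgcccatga

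A further 3 windows show the core with 1 base of its CG changed, and the E-box CAGCTG, the site of muscle bHLH factors. These 3 were chosen after the motif counts had been seen. In Auts2 the capitals mark the change C5T, read on the minus strand, and in Cdh23 the change G6A, with positions counted from 1 at the 5′ end of GTCACG. In St6galnac3 they mark the E-box.
Auts2, chr5:132050526-132050586, fold 18.1: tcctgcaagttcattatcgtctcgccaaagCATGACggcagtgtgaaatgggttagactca
Cdh23, chr10:59990992-59991052, fold 15.7: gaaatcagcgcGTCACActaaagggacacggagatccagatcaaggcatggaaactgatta
St6galnac3, chr3:153248089-153248149, fold 17.3: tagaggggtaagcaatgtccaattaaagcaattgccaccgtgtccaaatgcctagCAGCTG

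The last 4 are the strongest members in each of 4 host genes, 3 of them for regulators and 1 for a structural protein of muscle. Dmd encodes dystrophin, Tead1 a partner of the Hippo effectors Yap and Taz, Runx1 a DNA-binding factor that is induced in regenerating muscle, and Foxp1 a forkhead repressor. Capitals in Runx1 again mark C5T, centered 2.5 bp from the summit.
Dmd, chrX:82225417-82225477, fold 6.80: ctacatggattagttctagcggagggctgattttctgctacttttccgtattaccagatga
Tead1, chr7:119840897-119840957, fold 7.04: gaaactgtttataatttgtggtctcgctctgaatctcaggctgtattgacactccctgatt
Runx1, chr16:92610123-92610183, fold 12.9: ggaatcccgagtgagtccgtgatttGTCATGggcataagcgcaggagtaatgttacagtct
Foxp1, chr6:98905922-98905982, fold 13.3: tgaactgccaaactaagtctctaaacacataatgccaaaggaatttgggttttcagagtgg

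Introns of long genes held more Pax7 peaks per length than the sequence between genes and slightly fewer than the introns of shorter genes. They made up 383 Mb, or 15.0% of the sequence, and carried 9.24 peaks per Mb (exact Poisson interval 8.94 to 9.55). The introns of shorter protein-coding genes carried 4752 peaks at 9.90 per Mb (9.62 to 10.2), and the sequence between genes 8030 peaks at 5.45 per Mb (5.33 to 5.57). The ratio of long-gene over shorter-gene introns was 0.934 (exact conditional interval 0.894 to 0.976). Against the sequence between genes it was 1.70 (1.63 to 1.77).

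The small deficit against shorter genes hid a rise and a fall with gene length. Density rose from 7.55 peaks per Mb (6.77 to 8.39) in introns of genes under 20 kb to 11.6 (11.1 to 12.1) in genes of 100 to 200 kb. It stood at 11.9 (11.2 to 12.6) in the 426 genes of 200 to 300 kb, which carried 1147 members. From there it fell to 10.2 (9.41 to 10.95) at 300 to 400 kb, 9.16 (8.53 to 9.82) at 400 to 600 kb and 6.77 (6.13 to 7.46) at 600 to 1000 kb. The 52 genes of 1000 kb or more carried 502 members at 7.0 per Mb (6.4 to 7.64). This class includes Gm20388 and Fgfr2, gene models described below that span many other genes, at 18.8 and 12.3 per Mb. Without models of that kind the class kept 386 members. Because the models left out were denser than the class, its density without them is below 7.0 per Mb, by an amount that was not computed. Hosts under 20 kb and those of 600 kb or more were thus the sparsest, and hosts of 100 to 300 kb the densest. With the limit at 100 kb, which adds the genes of 100 to 200 kb to the hosts, the ratio was 1.12 (1.06 to 1.17).

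**Figure D1:**
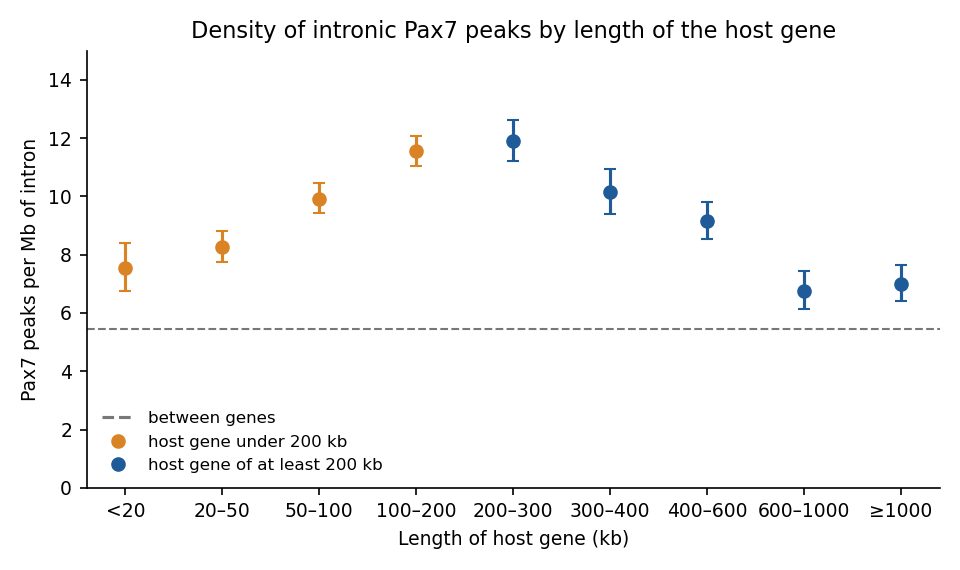
Pax7 peaks per Mb of intron (y axis) by the length of the host gene in kb (x axis). Points are the density over all genes of a length class with exact 95% Poisson intervals, orange under 200 kb and blue from 200 kb up, and the dashed line is the density between genes. Density peaks at 11.9 per Mb in genes of 200 to 300 kb and is 7.0 in genes of 1000 kb or more, above the 5.45 between genes. The 7.0 includes the denser gene models that span many other genes.

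The ratio of long-gene over shorter-gene density changed with the distance from the nearest TSS of any gene. Within 1 to 5 kb of a TSS, long-gene introns had 12.7 peaks per Mb and shorter-gene introns 9.82, a ratio of 1.29 (1.15 to 1.46). At 5 to 20 kb the ratio was 1.08 (0.997 to 1.18) and at 20 to 50 kb 0.927 (0.851 to 1.01), and both intervals held 1. At 50 to 100 kb it was 0.795 (0.696 to 0.908), with 8.18 against 10.3 peaks per Mb. Beyond 100 kb, where shorter genes had 28 peaks, the ratio was 1.17 (0.804 to 1.78). Against the sequence between genes, the density was higher in each of the 5 distance classes, by a ratio of 1.39 to 1.99. Members sat far from promoters, with a median of 36.0 kb to the nearest TSS and 19.3% beyond 100 kb, against 11.7 kb and 0.589% for shorter-gene intron peaks, as the length of the genes allows.

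**Figure D2:**
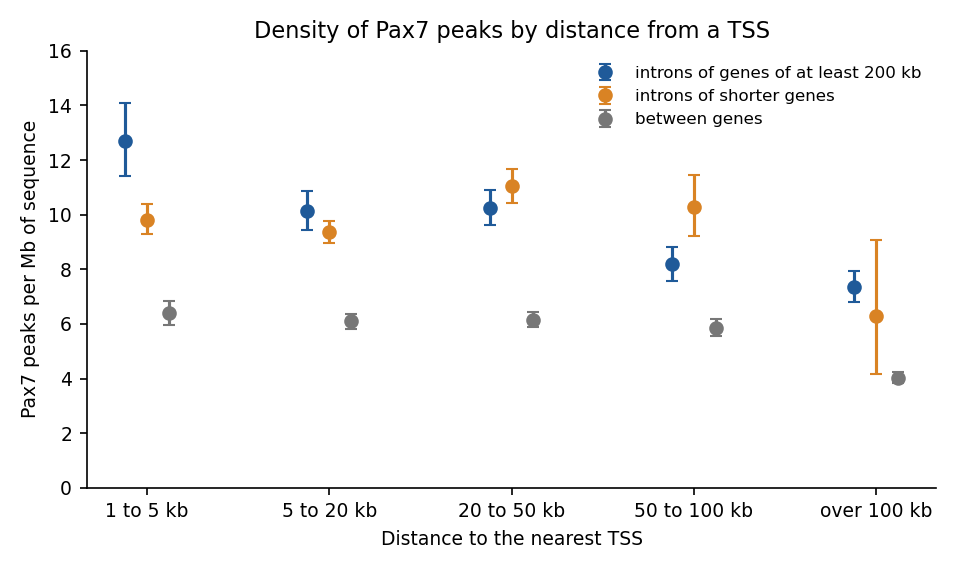
Pax7 peaks per Mb (y axis) by distance to the nearest TSS of any transcript (x axis), for introns of genes of at least 200 kb (blue), introns of shorter genes (orange) and sequence between genes (gray), with exact 95% Poisson intervals. Long-gene introns lead at 1 to 5 kb with 12.7 per Mb, and shorter-gene introns at 50 to 100 kb with 10.3 per Mb.

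The 3 members farthest from any TSS lay in Dcc, the netrin receptor, and in Gpc5, a glypican of the cell surface. The Dcc summit was 742 kb from the nearest TSS, with 7.67-fold enrichment and a paired-box core within 50 bp. The Gpc5 summits were 718 kb away in both cases, with 3.67-fold and 5.06-fold enrichment.

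Members were rare on chromosome X. Its long-gene introns carried 43 peaks at 2.19 per Mb (1.58 to 2.95), against 9.62 per Mb (9.31 to 9.95) on the autosomes, a ratio of 0.228 (0.164 to 0.307). Introns of shorter genes had 2.95 per Mb on X and 10.2 on autosomes, a ratio of 0.289 (0.220 to 0.374). Of the 45 long genes on X, 18 held a member, against 731 of 909 on the autosomes. Their median fold enrichment was 5.58, against 5.27 on the autosomes. How many copies of X the cells carried, or how well reads mapped there, was not tested. Each count given below for a gene on X, such as Dmd, is to be read against the lower rate on that chromosome.

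Members were about as strong as intron peaks elsewhere. Their fold enrichment ran from 2.26 to 22.4. The median was 5.27, with 4.32 and 6.80 as lower and upper quartiles, and it was 5.21 in shorter-gene introns and 5.23 between genes. A randomly drawn member had the higher fold enrichment than a randomly drawn shorter-gene intron peak with probability 0.510 (DeLong interval 0.497 to 0.522). At least 10-fold enrichment was reached by 233 members, or 6.58% (5.81% to 7.45%), where 6.99% of all peaks in the list reached it. The share in shorter-gene introns was 7.13%, a difference of -0.55 percentage points (Newcombe interval -1.64 to 0.56), and between genes it was 7.66%, a difference of -1.08 points (-2.05 to -0.044). Median width was 252 bp for members and 249 bp for shorter-gene intron peaks.

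The 10 strongest members lay in 10 different genes. The first was in Agap1, a GTPase-activating protein of endosomes, 246 kb from the gene's start, at 22.4-fold and with a −log10 q of 130. It was followed by Epha5, an ephrin receptor, with 19.4, by Xylt1, which starts the sugar chains of proteoglycans, with 19.3, by Mad1l1, of the spindle checkpoint, with 19.2, and by Dlg2, a synaptic scaffold, with 19.2. The remaining 5 lay in Hydin, a protein of cilia, with 18.96, in Ppp1r9a, which binds actin and protein phosphatase, with 18.8, in Auts2 with 18.1, in Bri3 with 18.0, and in Park2, the ubiquitin ligase parkin, with 17.5. The Ppp1r9a peak was also the widest member, at 1045 bp, and the Dlg2 summit stood 1316 kb into its gene. These 10 peaks were in introns after the first one of their host, and the nearest protein-coding TSS was that of the host in 8 of the 10, the exceptions being Agap1 and Bri3.

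Of the 954 long protein-coding genes, 749 held at least 1 member, or 78.5% (75.8% to 81.0%). The median was 3 members a gene: 205 genes held none, 131 held 1, 316 held 2 to 4 and 302 held 5 or more, among them 74 with at least 10. Longer genes held more, but loosely, with a Spearman correlation of 0.26 between members and Mb of intron across the 954 genes, which share libraries and chromosomes. The 10 genes with the most members held 265, or 7.49% of them.

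The gene models at the head of that ranking need care. Gm20388 held 72 members and Fgfr2 33, but in this annotation the models run over 4435 kb and 3009 kb, and 72 and 31 other protein-coding genes lie wholly inside them. In all, 8 long models held at least 5 other protein-coding genes and together took 117 members, or 3.31%. The other hosts are free of most of this, since 801 of the 954 long genes held no other protein-coding gene, and those 801 carried 2837 members. Without the 8 models the list kept 3422 members with a median fold enrichment of 5.28.

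The other genes among the 10 with the most members encode proteins of several kinds. Pde4d, a cyclic AMP phosphodiesterase, held 25, of which the strongest had 16.8-fold enrichment. Auts2, a partner of Polycomb complexes, held 24 with up to 18.1-fold, Rbms3, an RNA-binding protein, 20 with up to 10.8, and Magi2, a scaffold of cell junctions, 20 with up to 9.41. Npas3, a bHLH-PAS transcription factor, held 19 with up to 15.0, Ptprd, a receptor phosphatase, 18 with up to 10.98, and Dlg2 and Agap1 17 each, as did Pard3b, Park2, Rad51l1 and 2010111I01Rik. The strongest peaks in Gm20388 and Fgfr2 had 16.4-fold and 14.9-fold enrichment, and the first of these lay 4.73 kb from the TSS of Banp, one of the genes inside the model. Per length the order was another one. Agap1 had 39.8 members per Mb and Npas3 23.3. Dlg2 had 8.92 and Ptprd 8.12, both under the 9.26 of all long genes but above the 7.0 of genes of 1000 kb or more. The 9.26 counts the 15 members inside more than 1 long gene once for each gene, and so differs from the 9.24 of the members as a set.

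The 10 densest hosts were genes of 202 to 361 kb. Tanc1, a postsynaptic scaffold, had 12 members at 59.0 per Mb, Gas7, an actin-binding protein, 11 at 52.5, and 2010111I01Rik 17 at 50.5. Samd4, a repressor of translation, had 10 at 48.8, Col19a1, a collagen of basement membranes, 15 at 47.8, and A430107O13Rik 12 at 47.1. Antxr1, an anthrax toxin receptor that binds matrix, had 9 at 46.4, Ldlrad3 10 at 46.1, Ppp1r9a 11 at 44.3 and Epb4.1l4a 9 at 43.5. High density and high strength were not the same thing: in Tanc1 the strongest member had 8.26-fold enrichment, and in Ldlrad3 16.8-fold.

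At the other end were very long genes with no member. The 5 longest were Il1rapl1 on chromosome X, a synaptic receptor of 1375 kb, Lrrc4c, a netrin-G ligand of 1314 kb, Cntn5, a contactin of 1244 kb, Sgcz, the zeta sarcoglycan of 1139 kb, and Nrg3, a neuregulin of 1104 kb. Of these, 4 encode proteins best known from neurons, and Sgcz belongs to the dystrophin-associated complex. The 4 autosomal genes had 1.10 to 1.29 Mb of intron each, while Auts2 and Rbms3, of similar length, held 24 and 20 members.

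The 3 host genes nearest to the 200 kb limit on either side are given with no test. Just above it, Pcbp3 (200031 bp) had 3 members with 3.58-fold to 4.44-fold enrichment, Plcxd3 (200063 bp) 1 with 6.80-fold and Glis1 (200471 bp) 3 with 5.88-fold to 7.70-fold. Just below it, Clec16a (199515 bp) had 1 intron peak with 5.93-fold, Bckdhb (199090 bp) 7 with 4.05-fold to 7.31-fold and Atp9b (198982 bp) 3 with 4.25-fold to 5.23-fold.

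Members had a close neighbor about as often as other peaks. Another peak lay within 10 kb of 37.5% of members (35.9% to 39.1%), where 35.2% of all peaks had one. The share was 39.6% in shorter-gene introns, a difference of -2.09 points (-4.20 to 0.033), and 32.2% between genes, a difference of 5.33 points (3.44 to 7.23). The tightest group was in Col19a1, with 11 members over 91.8 kb. Pde4d had 10 over 88.1 kb and Fry, a regulator of the cytoskeleton, 10 over 82.8 kb. Akap6, which anchors protein kinase A at the nuclear envelope of muscle cells, had 9 over 85.5 kb, and Eya4 8 over 93.8 kb. Fry and Akap6 were picked after their values were seen.

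The peaks along single genes differed in strength several fold. In Agap1 the 17 members ran from 3.43-fold to 22.4-fold, and the strongest stood alone, since the next had 8.31-fold. In Col19a1 no member reached 10-fold: the 15 values ran from 3.57 to 8.16, and 12 of them lay at most 116 kb from the start of this 326 kb gene. In Eya4, a co-activator that works with SIX-family factors upstream of the myogenic regulators, the 10 members ran from 2.88 to 13.4, with 8 of them between 112 and 185 kb from the gene's start. The strongest was 223 kb from the start and is the 1 printed above with the homeodomain dimer. In Runx1 the 9 members ran from 2.79 to 12.9, and 7 of them lay between 85.8 and 133 kb from the start, 3 of these with a paired-box core. In Lama2, which encodes the laminin chain of the muscle basement membrane, the 11 members ran from 3.49 to 9.61. In Utrn, which encodes utrophin, the paralog of dystrophin, the 10 members ran from 3.52 to 9.24, with 2 of them at least 431 kb from the start.

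**Figure D3:**
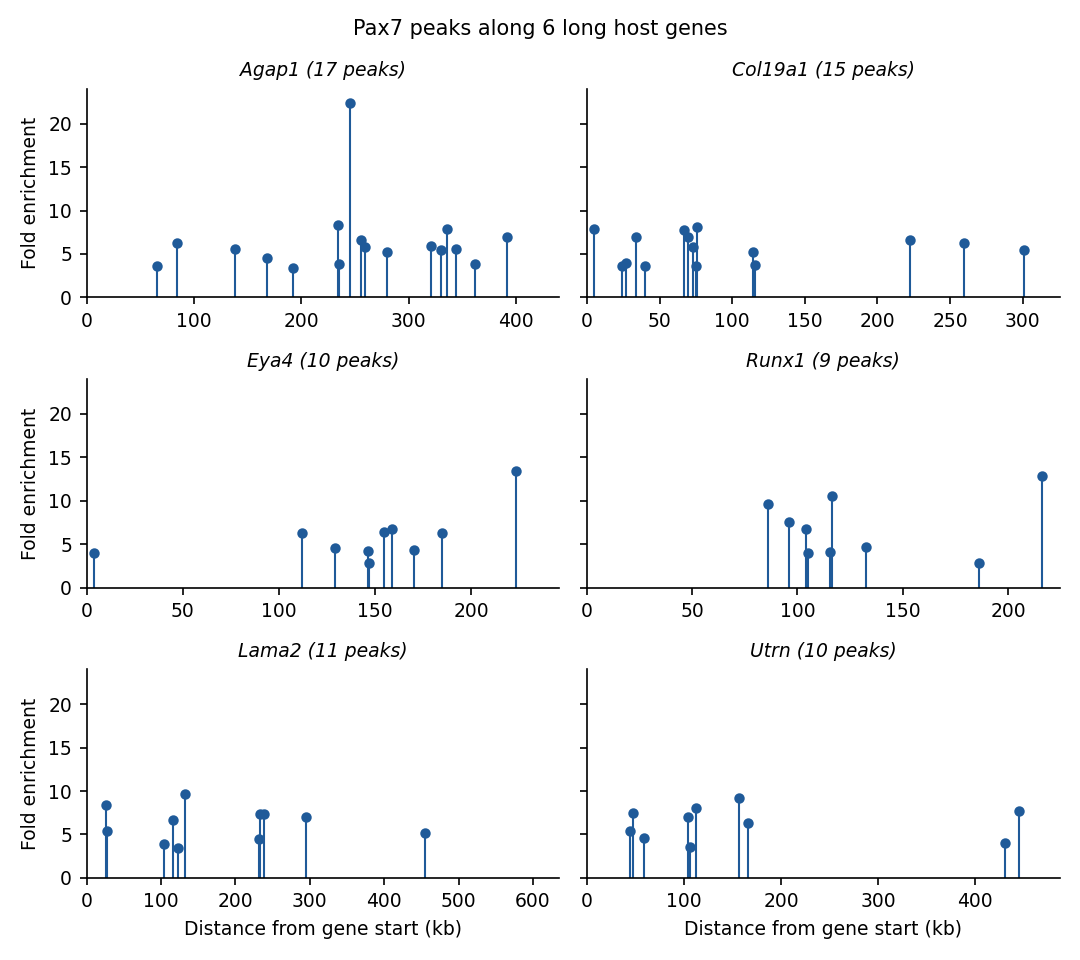
Fold enrichment of each member peak (y axis) against its distance from the start of the host gene in kb (x axis, full length of the gene) in Agap1, Col19a1, Eya4, Runx1, Lama2 and Utrn, 1 stem a peak. The 22.4-fold peak of Agap1 stands above its 16 neighbors, and the Col19a1 peaks crowd toward the start of the gene.

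Along the whole set, members did not favor the start of the gene. The first intron held 759 members, or 21.4% (20.1% to 22.8%), and 22.8% of the eligible sequence, a difference of -1.31 points (-2.63 to 0.072). Without the 8 models that span other genes the share was 20.1%, and the difference of -2.13 points (-3.44 to -0.75) passed below 0. In 5 equal parts of the gene from its 5′ end lay 18.2%, 19.2%, 19.4%, 21.7% and 21.5% of members, where the eligible sequence held 20.1%, 20.4%, 20.2%, 20.1% and 19.3%. The interval of the first of these parts (16.9% to 19.5%) lay below its share of sequence, and those of the fourth (20.3% to 23.1%) and the last (20.2% to 22.9%) above theirs. Members in the first intron and in later introns had a median fold enrichment of 5.21 and 5.30. The nearest protein-coding TSS was that of the host for 80.0% of members (78.6% to 81.3%) and for 81.4% of eligible positions sampled every 1000 bases.

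Pax motifs were concentrated at the summits. The paired-box core GTCACG lay within 50 bp of 303 summits, or 8.56% of members (7.68% to 9.53%), and in 1.19% of windows of the same length centered 500 bp to the right. In the whole list 11.1% of peaks had it. The core was in the summit window alone in 298 peaks and in the flank alone in 37 (McNemar's exact test, two-sided, p adjusted over 8 motifs = 3.21e-51). The joined sequence ATTAGTCA was in 3.25% of members (2.71% to 3.89%) against 0.452% of flanks (adjusted exact p = 5.53e-20) and 2.94% of all peaks. The dimer TAATNNNATTA was in 1.30% (0.976% to 1.73%) against 0.339% of flanks (adjusted exact p = 9.39e-06) and 0.991% of all peaks. Together the 3 motifs were found at 447 members, or 12.6% (11.6% to 13.8%), which leaves most summits without these exact letters.

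Sites of other factors of muscle and mesenchyme were also more frequent at the summits than in the flanks. The E-box CAGCTG was in 15.9% of members against 4.15% of flanks (adjusted exact p = 7.32e-62), the Tead site GGAATG in 11.3% against 5.28%, the AP-1 site TGANTCA in 7.35% against 3.28% and the Runx site TGTGGT in 10.9% against 7.71%. The adjusted exact p of these 3 ran from 8.35e-20 to 8.17e-06. The control hexamer GCACTG, which is no known site of these factors, was also somewhat more frequent at summits, with 7.04% against 5.40% (adjusted exact p = 0.00461), a ratio of 1.30. The Runx ratio of 1.41 was close to that of the control, while the E-box and core ratios were 3.82 and 7.21. The E-box was no more frequent where the core was present: 14.9% of the 303 members with the core had it, and 15.9% of the others.

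A count of all 2080 hexamers put the E-box and pieces of the Pax sites near the top. The largest gain from the mean of both flanks to the summit was that of CAGCTG, with 11.4 points. It was followed by TCATGG with 10.7 and GTCATG with 10.6, then CATGGT with 10.2, AGCTGT with 10.0 and CTAATT with 9.48. GTCATG is the paired-box core with the change C5T, and GTCACA, with a gain of 8.07 points, is the core with the change G6A. The core itself ranked 11 by points but had the largest ratio, 8.91, of the hexamers found in at least 50 members. These shares are a description with no test, since the hexamers were picked by their counts. GTCATG was at 14.8% of member summits against 4.07% of right flanks, and GTCACA at 14.2% against 6.41%. The core or either change was at 1217 members, or 34.4%, against 11.2% of right flanks.

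The paired-box core was less frequent at members than at peaks in shorter genes. It was found at 11.7% of shorter-gene intron peaks (10.8% to 12.6%), so the difference was -3.10 points (-4.39 to -1.79). It was found at 8.70% of peaks between genes, a difference of -0.14 points (-1.23 to 0.99). The share fell with the length of the host, from 12.6% (10.9% to 14.5%) in genes under 50 kb through 11.2% at 100 to 200 kb and 10.7% at 200 to 300 kb to 5.58% (3.75% to 8.24%) at 600 to 1000 kb and 6.77% (4.89% to 9.32%) beyond. At 400 to 600 kb it was 9.16%, above the 7.34% at 300 to 400 kb, with intervals that overlapped. In the longest class it was 5.18% without the models that span other genes. Peaks with C5T differed by -0.25 points (-1.80 to 1.31) between long and shorter genes, and those with G6A by -1.83 points (-3.37 to -0.27). The core or either change was at 34.4% of members and 38.5% of shorter-gene peaks, a difference of -4.10 points (-6.18 to -2.01).

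The base composition of the windows moved with the difference in the core. GC content within 50 bp of a summit averaged 44.4% ± 6.11 (SD over 3539 members) and 46.0% ± 6.67 (SD over 4752 shorter-gene peaks), a difference of -1.56 points (-1.84 to -1.29). The flanks of members averaged 42.6% on the right and 42.4% on the left. Within 4 ranges of GC content (parted at 40%, 45% and 50%), set after the first result, the difference in the core was -1.26, -1.32, -2.68 and -2.47 points from the lowest range to the highest, below 0 in each, with intervals that all held 0. Across the same ranges the core itself rose at members from 3.06% to 16.7%. The part of GC content in the difference was not tested beyond this.

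The homeodomain dimer was at 1.30% of members and 0.800% of shorter-gene peaks, a difference of 0.50 points (0.061 to 0.98) that rests on 46 and 38 peaks. The interval held 0 at a −log10 q of at least 5 (0.41 points), at a fold enrichment of at least 5 (0.39) and in a 25 bp window (0.32). The joined sequence differed by -0.18 points (-0.95 to 0.62). The E-box was at 18.0% of shorter-gene peaks, a difference of -2.10 points (-3.71 to -0.46), and the control at 7.81%, a difference of -0.77 points (-1.90 to 0.38).

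**Figure D4:**
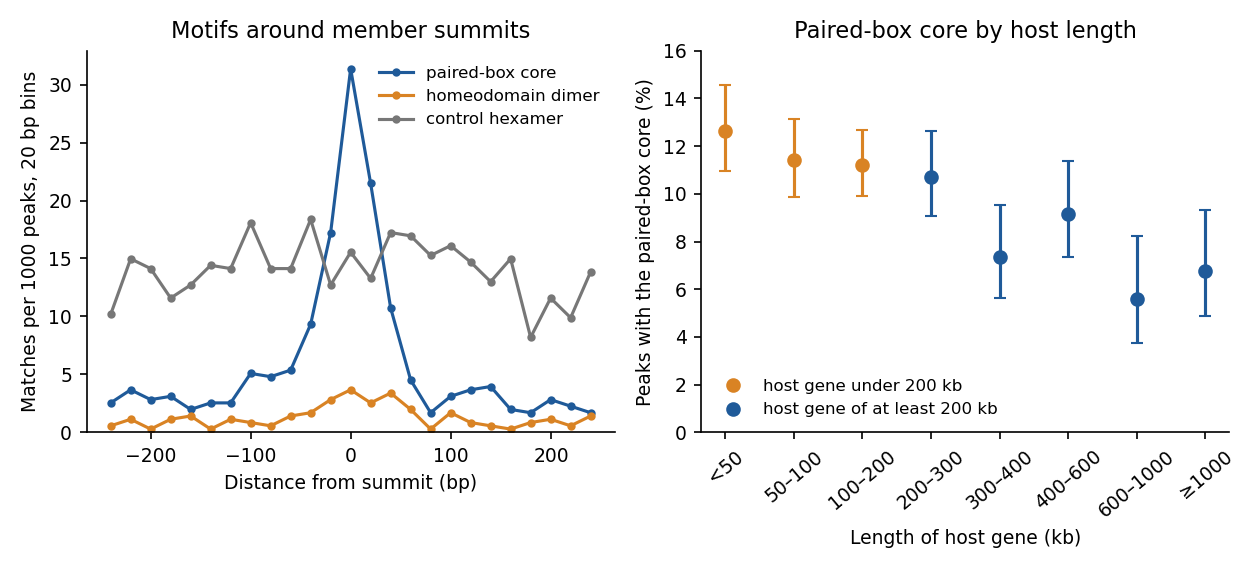
Left, matches per 1000 member peaks in bins of 20 bp (y axis) by distance from the summit in bp (x axis) for the paired-box core, the homeodomain dimer and the control hexamer. Right, percent of intron peaks with the core within 50 bp of the summit (y axis, 95% Wilson intervals) by length of the host gene in kb (x axis). The core reaches 31.4 matches per 1000 peaks at the summit, the control stays without a peak there, and the share with the core falls from 12.6% in genes under 50 kb to 6.77% in genes of 1000 kb or more.

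The share of members with a Pax motif rose with fold enrichment, most clearly for the paired-box core. The core was at 6.23% (4.83% to 8.00%) of the 899 weakest members and at 9.93% (8.12% to 12.1%) of the 876 strongest. Over the same groups the joined sequence went from 2.56% to 3.88% and the homeodomain dimer from 1.67% to 1.14%. The intervals of both rarer motifs overlapped, so these counts do not decide whether either changed with fold enrichment. Any of the 3 Pax motifs was at 9.68% (7.91% to 11.8%) of the 899 members with the lowest fold enrichment and at 14.7% (12.5% to 17.2%) of the 876 with the highest. Among the 233 members of at least 10-fold the share was 14.6% (10.6% to 19.7%), and among the 36 of at least 15-fold it was 4 peaks, or 11.1% (4.41% to 25.3%). Of the 10 strongest, 0 had one of the 3 within 50 bp of the summit, which allows no statement about other forms of the site. With C5T and G6A counted, 3 of the 10 had a match, namely Xylt1, Mad1l1 and Auts2.

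The muscle genes among the hosts were about as dense as long genes in general. Of 30 long genes of the muscle structure and dystrophin complex list, 26 held a member, and the list had 154 members at 9.62 per Mb (8.16 to 11.3), where 749 of all 954 long genes held one at 9.26 per Mb (8.96 to 9.57). Its median fold enrichment was 5.58 beside 5.27 for all members, and 16 of its members, or 10.4%, reached 10-fold, where 6.58% of all members and 6.99% of all peaks did. Pde4d led with 25 members, followed by Ank3, a membrane adaptor, with 12, Lama2 with 11 and Utrn with 10. Ank3 held the strong ones, with a median of 9.36-fold over its 12 members. Dmd, the longest muscle gene with 2257 kb on chromosome X, held 2 members of 4.71-fold and 6.80-fold, or 0.906 per Mb, against 2.19 for that chromosome. On autosomes, Sgcd held 2 at 1.87 per Mb and Sgcz and Sntg1 held 0. By contrast, Dtnb held 4 at 22.0 per Mb and Sntb1 4 at 15.1. These 5 genes were picked for this comparison after their values were seen.

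Long genes of transcription factors and chromatin regulators were denser. Because density differs with host length, the density that each list would have at the rate of all long genes of its length classes is given beside it, a comparison added after the values were seen. For the muscle structure list it was 8.47 per Mb. Of 48 developmental transcription factor gene models, 43 held a member, or 89.6% against 78.5% of all long genes. The list had 269 members at 15.6 per Mb (13.8 to 17.6) where its length classes gave 9.64. Runx2 is present as overlapping models that hold the same 5 members, and these are counted once in each. After Npas3 came Sox6, which represses slow fiber genes in muscle, with 12 members of 3.40-fold to 5.84-fold, Zfp521 with 11 and Maml3, a Notch co-activator, with 11. Of 11 chromatin regulator genes 10 held a member, or 90.9% against 78.5% of all long genes. This list had 72 members at 16.9 per Mb (13.2 to 21.2) where its length classes gave 9.50. Auts2 had 24, Smyd3, a methyltransferase, 11, Baz2b 9 and Rere 7. The median fold enrichment was 5.14 in the first list and 5.02 in the second, near that of all members.

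Long genes for neural adhesion and cadherins were sparser than long genes in general, while the interval of the axon guidance genes held the density of all long genes. Of 52 long genes for neural cell adhesion and synapses 40 held a member, or 76.9%, near the 78.5% of all long genes. The 52 genes had 201 members at 4.63 per Mb (4.02 to 5.32). These genes were long, with a median of 759 kb against 320 kb for all long genes, and their length classes gave 7.36 per Mb. Dlg2 held 17, the neurexin gene Nrxn3 15, and Dab1, of the reelin pathway, and Cadm1 10 each, the last in 0.315 Mb of intron and so at 31.7 per Mb. The 13 long cadherin and protocadherin genes had 46 members at 5.88 per Mb (4.31 to 7.85), where their length classes gave 7.98, led by Cdh13 with 8, Pcdh7 and Cdh4 with 7 each, and Cdh23 with 5. The 25 axon guidance genes had 88 members at 8.39 per Mb (6.73 to 10.3), where their length classes gave 9.40, with Trio at 8 and Sema3a, Plxdc2 and Robo1 at 6 each. Strength did not follow density, since the median fold enrichment was 5.64 in the neural adhesion list, 5.41 in the cadherins and 5.17 in axon guidance.

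Matrix genes were also denser than long genes in general, while the interval of the signaling genes held the density of all long genes. The 23 long extracellular matrix genes had 93 members at 13.2 per Mb (10.7 to 16.2), led by Col19a1 with 15, Lama2 with 11, and Adamtsl1 and Hmcn1 with 8 each. Col19a1 alone gave its 15 in 0.314 of the 7.03 Mb of intron of the list. The density of the list without this gene was not computed, so the higher value may rest on it. The 21 long genes of growth factor and morphogen signaling had 121 members at 9.34 per Mb (7.75 to 11.2), and 88 at 8.56 per Mb without the Fgfr2 model. After Fgfr2, the glypicans Gpc6 and Gpc5 held 9 and 8, and Ltbp1, which stores TGF-beta in the matrix, held 8. The length classes gave 10.3 per Mb for the matrix list and 8.21 for the signaling list, and the median fold enrichment was 5.76 and 5.09.

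**Figure D5:**
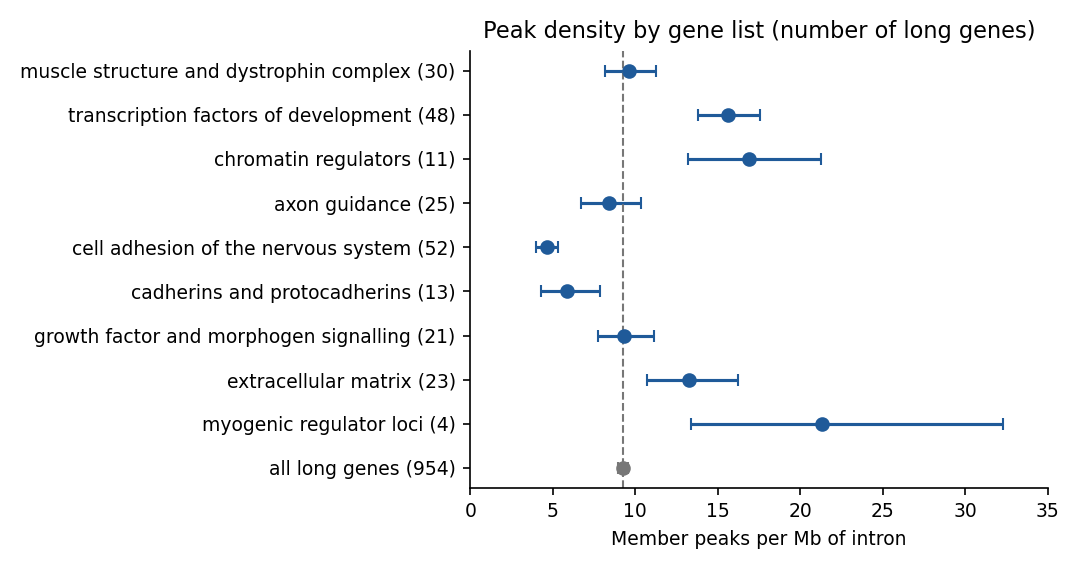
Member peaks per Mb of intron (x axis) for 9 gene lists and for all 954 long genes, with exact 95% Poisson intervals and the number of long genes in parentheses. The dashed line is the 9.26 per Mb of all long genes. Transcription factors (15.6) and chromatin regulators (16.9) lie to its right, neural adhesion genes (4.63) to its left.

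Of 60 genes of the myogenic program and its upstream regulators, 4 were long enough to be hosts. All 4 held members, as did 78.5% of all long genes. Eya4 had 10 at 41.9 per Mb, Runx1 9 at 42.4 per Mb, Tead1 2 with 7.04-fold and 5.34-fold, and Dach1, a co-repressor of the SIX-family and Eya network, 1 with 4.35-fold. The other regulators are short genes, so members could be near them only inside another gene model, which may also cover the regulator itself. Within 300 kb of Cdh15, the M-cadherin of satellite cells, lay 15 members, the strongest with 12.3-fold, all in the Gm20388 model. That strongest summit was 230 kb from the Cdh15 TSS and 2.33 kb from the TSS of Spg7. Most of the 15 had the TSS of a gene other than Cdh15 nearest. The nearest summit was 2.84 kb from the Cdh15 TSS, with 6.83-fold. The Gm20388 model also covers the Cdh15 TSS, so a member in it can lie inside Cdh15 itself. Introns of Ptprq, a receptor phosphatase beside Myf5 and Myf6, held 7 members within 300 kb of both TSSs, with 3.12-fold to 10.7-fold. The 2 with the joined paired-box and homeobox sequence had 5.55-fold and 5.25-fold. Introns of Macf1, a cytoskeletal linker next to the Notch effector gene Heyl, held 6 members within 300 kb of the Heyl TSS, with 3.95-fold to 9.46-fold. Introns of Pcca, next to Zic2, held 3 within 300 kb of the Zic2 TSS, with 4.80-fold to 8.76-fold.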

How the data were processed

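Pax7 was measured by ChIP-seq in 2 ChIP and 2 input libraries. The authors mapped the reads with bowtie2 (mm9, unique hits), dropped PCR copies using Picard, and ran MACS2 at a q-value of 0.01 on the merged ChIP against the merged inputs. The deposited list gives, per peak, a fold enrichment (a ratio of ChIP over local background), the −log10 q-value, a score derived from it and a summit, all made by the authors; its −log10 p column was not used here. No column belonged to 1 sample, and 0 such columns were left over. Depth cannot be read from the list.

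Summits were placed on NCBIM37 and GENCODE M1. The longest protein-coding gene over a summit was its host, and the first intron was taken from the host's transcript models. Densities have exact Poisson intervals, ratios exact conditional ones, shares Wilson and their differences Newcombe intervals, and probabilities DeLong intervals. Motifs were searched on both strands. Summit and flank were compared by McNemar's exact test with Benjamini-Hochberg adjustment over 8 motifs. The procedures were tested on simulated data. Named hosts were the 10 with the most members, the 10 densest with at least 5, the 5 longest with none and the 4 leading genes of each list; named peaks were the 10 strongest, the strongest per top host, the 3 farthest from a TSS, those at 200 kb and those near myogenic genes. Members, gene lists and rules were chosen with earlier results of these data known. The genome copy did not mark repeats, so repeats were not analysed here. Sequences were chosen without chromosome 18. Scripts ran in Python 3.11.15 with scipy 1.17.1, pandas 2.3.3, numpy 2.4.6 and matplotlib 3.10.9.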

Additional observations from a re-analysis of the deposited data

How the results depend on the processing

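Of 132 recomputed values of 13 results under 16 settings, 104 counted as unchanged. For the number of members this meant a count within a set factor of the main one. For the share of long genes with a member it meant a value inside the main interval. For the other results it meant the same direction and the same side of the threshold. The summit shares of the 3 Pax motifs against the flank were unchanged under each of their 12 settings. So were the lower share of the paired-box core and the lower GC content than in shorter genes, under each of their 11 settings. The number of members was 5564 with hosts of at least 100 kb, 1711 with hosts of at least 400 kb and 2013 at a fold enrichment of at least 5, and the share of long genes with a member was then 66.9%, 82.3% and 70.2%. With hosts of at least 100 kb, the density ratio turned to 1.12 (1.06 to 1.17) and the difference in peaks of at least 10-fold to 0.34 points (-0.85 to 1.46). At a fold enrichment of at least 5 the density ratio was 0.979, with an interval that held 1. The difference in neighbors within 10 kb then turned to 0.86 points (-1.60 to 3.34) and the probability of the higher fold enrichment to 0.492 (0.476 to 0.509). Apart from the density ratio at 100 kb, the turned values had intervals that held no difference, as did their main values. The cause of these turns was not tested. That probability passed 0.5 with hosts of 100 kb (0.517), hosts of 400 kb (0.522) and 1 peak per host gene (0.528). The higher share of the homeodomain dimer lost its call at a −log10 q of at least 5 (0.41 points), a fold enrichment of at least 5 (0.39) and a 25 bp window (0.32). The lower share in the first intron gained a call at 5 kb from a TSS (-1.64 points), a fold enrichment of at least 5 (-2.94), with summits merged within 500 bp (-1.41), without the models that span other genes (-2.13), and with 1 peak per host gene (-5.35), where the peak nearest the middle was kept by construction. The lower share with a neighbor gained one with hosts of 400 kb (-4.20 points), merged summits (-2.31), 5 kb (-2.38), 50 kb (-3.72), 1 peak per host gene (-5.05) and without the models that span other genes (-2.30). Leaving out those models or chromosome X was chosen after seeing the data. No paired analysis was possible because the list was called on merged libraries, and for the same reason no replicate could be left out.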

Other observations

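Some long genes with no member were next in length to those named above. Cntn4, a contactin like Cntn5, Sntg1, a syntrophin, Dpp6, a potassium channel subunit, and Grid1, a glutamate receptor, run over 1022, 938, 910 and 764 kb and held 0 members. They were chosen after their values were seen. On chromosome X, where members were rare, 6 lay in Il1rapl2, with 4.08-fold to 8.64-fold enrichment over 1276 kb, while its paralog Il1rapl1, elsewhere on X, held 0. Also on X, 4 members each lay in the glypican gene Gpc3, in Sh3kbp1, in Mid1 and in Frmpd4, at 12.1, 12.2, 13.6 and 3.72 per Mb. Of the 43 members on X, 1 reached 10-fold, in Sh3kbp1 with 10.5-fold.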
